A study of Schizosaccharomyces pombe with 4 samples.

Results

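Fission yeast genes that were moderately higher when the zinc-responsive repressor Loz1 was deleted are described here. They are 127 of the 5159 genes with identifiers of the coding type in the deposited files, called coding genes below, and 125 match a RefSeq coding gene. A gene was taken when its mean over the 4 libraries was at least 5 FPKM (sequenced fragments per length of transcript and per library total), when the ratio of the group means of FPKM + 1 lay from 2 to below 4, when both deletion values lay above both wild-type values, and when it lay at least 100 kb from a chromosome end. Of 4685 coding genes that met the level and position limits, 127 met all of them, or 2.71%. The ratio itself chose these genes, so their differences between strains are given as a description, with no test. Above them stood 37 genes raised at least 4-fold, and below them 371 genes raised from 1.5-fold to below 2-fold. By the mirrored rule 52 genes were moderately lowered.

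Total RNA of Schizosaccharomyces pombe was sequenced from 2 libraries of a strain labelled loz1 deletion and 2 libraries of wild type. Both strains were given the same treatment, growth in minimal medium made low in zinc and then resupplied with it, and were harvested at an OD600 of about 6.0. Per the labels 100 mM zinc was added, a unit copied from them and not checked. They name no mating type, no other allele and no separate cultures, so the spread within a group may be technical. The bounds around each FPKM value gave an approximate depth of 1.65e+07 and 1.76e+07 fragments in the deletion libraries and of 1.55e+07 and 1.56e+07 in wild type.

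Loz1 carries zinc fingers and shuts off genes in zinc-rich medium, by binding a short response element around GATC in their promoters. Its best known targets encode a zinc importer, an alcohol dehydrogenase and an RNA antisense to a second alcohol dehydrogenase. When Loz1 is absent these genes stay on in zinc-rich medium, so that cells go on taking up zinc. The genes with moderate rises described here include genes of sterol and amino acid synthesis, sugar and vitamin uptake, antioxidant defence and the cell wall.

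Some properties of the libraries bear on every comparison. The loz1 transcript itself went against the label, with 6.87 and 5.81 FPKM in wild type but 56.4 and 56.0 FPKM where loz1 is labelled as deleted. The labels do not say which part was deleted, and 1 value covers the whole transcript, so all directions below are those of the libraries as labelled. Mating-type markers differed too. The summed level of 10 genes that mark M cells was 340.1 and 336.5 FPKM in the deletion libraries and 5297 and 19020 FPKM in wild type, with mat1-Mi and mat3-Mi listed at 0 in both deletion libraries. Of these 10 only sxa1 was higher in the deletion libraries, at 181 and 185 against 166 and 130 FPKM, and it made up most of their sum. The summed level of 5 P-cell markers was 293.6 and 262.4 FPKM in the deletion libraries and 28.25 and 48.84 FPKM in wild type. Most of that sum was SPMTR.01, at 239 and 216 against 0 and 0.302 FPKM, and map4 and sxa2 were lower in the deletion libraries, at 5.71 and 5.34 against 6.77 and 6.13 FPKM and at 12.9 and 11.7 against 14.4 and 35.9 FPKM. The strains therefore differed in mating-type markers as well as in the label, and the part of that difference in the values below cannot be told apart from the part of the deletion. In such bulk RNA, fewer cells of a kind and less RNA per cell cannot be told apart either.

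Matches to the Loz1 response element were looked for upstream of the members, since they are the sequences most directly tied to the repressor. Within 1000 bases before the RefSeq gene start, 7 of the 125 members with a RefSeq coding gene held at least 1 match, on either strand. Each is shown here with 9 bases on both sides, read 5′ to 3′ on the strand of the element from the RefSeq genome (ASM294v3), with the matching bases in capitals.

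tpx1, III:2085799-2085827: tagacgagaCGCCGATCATTccataacgt

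pof1, I:1375624-1375652: atatatgtgCGTAGATCATTaaaaatctg

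gcv1, I:3012299-3012327: gacgctgatCGACGATCCTTacaggtaca

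SPBC12C2.03c, II:2472739-2472767: aatctgaatCGTCGATCTTTgcgtcatta

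gud1, III:568138-568166: atattttaaCGTCGATCTTTtgttttcgc

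dal2, I:4244148-4244176: gaagtatttCGAAGATCATCctcctcagg

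SPAC4H3.01, nearer match, I:3821916-3821944: ctttccactCGCAGATCATTcttggcttc

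SPAC4H3.01, farther match, I:3821605-3821633: cgtgttatcCGTCGATCATTtttctagaa

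zrt1, raised at least 4-fold, for comparison, II:3606974-3607002: attttcaagCGTCGATCCTTaaaccttgg

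The match began 48 bases before the start of pof1, 99 before tpx1 and 148 before gcv1. It began 283 bases before SPBC12C2.03c, 287 before gud1 and 774 before dal2, and SPAC4H3.01 had matches at 472 and 783 bases. These distances run to the RefSeq gene start, and a transcript in the files can begin farther upstream. If coordinates of the builds coincide there, as they did for 98% of introns, the matches of pof1, gcv1 and gud1 and the nearer one of SPAC4H3.01 lie inside the transcript that was measured and not before it. In 3 of the 7 genes the element is shared with a gene on the opposite strand that was raised at least 4-fold. The element of pof1 also lies 950 bases before mug15, which was at 104.6 and 101.4 FPKM in the deletion libraries against 2.412 and 3.592 FPKM in wild type. That of SPBC12C2.03c lies 702 bases before SPBC12C2.14c, at 52.9 and 37.5 against 1.38 and 4.55 FPKM. Both elements of SPAC4H3.01 also lie before SPAC1F12.10c, at 602 and 606 against 113 and 157 FPKM. In each of these pairs the member had the smaller ratio, 2.78 for pof1 against 26 for mug15, 2.40 for SPBC12C2.03c against 11.6, and 2.81 for SPAC4H3.01 against 4.46. A match describes letters and not a bound site.

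The share of genes with such a match was 2.4% of members within 250 bases, 4.8% within 500 and 5.6% within 1000 (3, 6 and 7 of 125). Among the other eligible genes it was 0.309%, 0.595% and 1.12%. These are all eligible genes but the members, so they include the genes raised at least 4-fold. Genes raised at least 4-fold had shares of 11.1%, 13.9% and 19.4% (4, 5 and 7 of 36). Within 500 and 1000 bases the members and these genes are not independent, since some elements are counted for both. There 1 element also counts for both loz1 and SPAC683.03, each raised at least 4-fold. Among genes raised from 1.5-fold to below 2-fold, also part of the other eligible genes, the share was 0.271% in each window (1 of 369). None of the 51 moderately lowered genes had a match in these windows. At the shares of other eligible genes so small a set would hold few or none. For the remaining 118 members no match lay in these windows, which says only that these letters are not there. The wider windows were added after the shares at 250 bases had been seen.

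Levels of the members spanned much of the range of the transcriptome. Their mean over 4 libraries ran from 5.11 FPKM for the pumilio-family RNA-binding gene puf5 to 3283 FPKM for the peroxiredoxin gene tpx1, with a median of 33.2 FPKM. The median of their group means was 46.6 FPKM in the deletion libraries and 19.2 FPKM in wild type. Together they made up 2.9% and 3.17% of summed FPKM in the deletion libraries and 1.05% and 0.844% in wild type. Most ratios lay near the lower bound: 72 were below 2.5, 38 were from 2.5 to below 3 and 17 were 3 or more, with a median of 2.45. The median ratio of all eligible genes was 1.10, a shift that every ratio here includes.

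**Figure D1:**
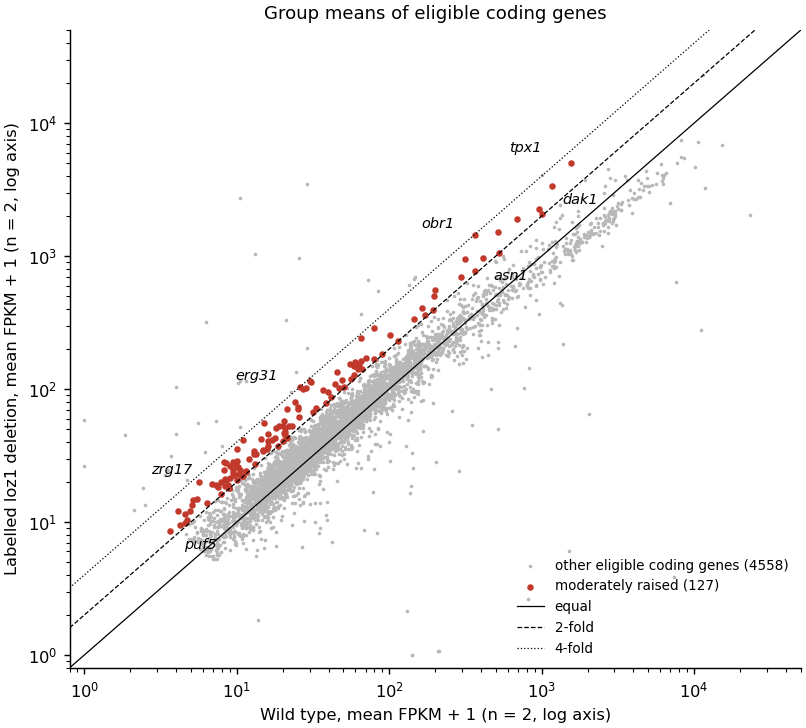
Mean FPKM + 1 of each eligible coding gene in wild type (horizontal, log axis) and in the libraries labelled loz1 deletion (vertical, log axis), n = 2 each. The 127 moderately raised genes (red) lie between the 2-fold and 4-fold lines, from a mean of 5.11 FPKM to 3283 FPKM, among 4558 other eligible genes (grey).

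The bounds fall in a continuous range and separate close neighbours. Just outside the upper bound lay its8, a gene of GPI anchor synthesis, with a ratio of 4.05, followed by gnd1 at 4.11, mmt1 at 4.22 and wtf5 at 4.43. Just inside it lay erg31 at 3.98, obr1 at 3.90, cbm1 at 3.79 and SPAC57A10.07 at 3.72. At the lower bound erg4, oxa102, SPAP27G11.11c and thr1 stood inside at 2.004 to 2.014, and nmt1, rad2, caf16 and rep2 were outside at 1.999 to 1.99. Of the 127 members 84 had a ratio of at least 2 in all 4 pairings of a deletion with a wild-type library.

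Antioxidant genes gave the member with the highest level. The gene tpx1 (SPCC576.03c, III:2084942-2085706), which encodes the thioredoxin-dependent peroxiredoxin that removes hydrogen peroxide, was at 4802 and 5221 FPKM in the deletion libraries against 1281 and 1827 FPKM in wild type. Its lowest deletion value was 2.63 times its highest wild-type value on the FPKM + 1 scale. The sulfiredoxin gene srx1, whose product restores overoxidised Tpx1, was at 107 and 96.2 FPKM against 31.6 and 23.2 FPKM. The quinone oxidoreductase gene obr1 stood at 1428 and 1434 FPKM against 379 and 352 FPKM, with replicates close to each other in both groups. These 3 genes had ratios of 3.22, 3.61 and 3.90, all in the upper part of the range. An antisense RNA, SPNCRNA.793, covers all of obr1, but its level in the deletion libraries was 0.807% of that of obr1.

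Ergosterol synthesis, which makes the main sterol of fungal membranes, contributed a chain of 6 enzymes, 5 of them on the list of 35 sterol genes. The squalene monooxygenase gene erg1 was at 73.7 and 84.6 FPKM in the deletion libraries and 20.7 and 25.5 FPKM in wild type. The sterol 14-demethylase gene erg11, whose enzyme is the target of azole antifungals, was at 30.98 and 34.997 against 13.5 and 10.5 FPKM, and the C-4 methylsterol oxidase gene erg25 at 185 and 180.3 against 83.3 and 93.98 FPKM. Later in the pathway the values differed widely. The methyltransferase gene erg6 was at 101 and 97.9 FPKM against 32.5 and 19.8 FPKM, and the C-5 desaturase gene erg31 at 97.5 and 109 against 22.4 and 27.9 FPKM, the highest ratio of all members at 3.98. The last reductase gene erg4 sat at the lower bound, with 36.6 and 35.8 FPKM against 17.9 and 17.2 FPKM. The gene are1, whose product stores sterols as esters, was at 60.7 and 61.4 against 29.3 and 19.97 FPKM. Of these, erg6 is fully overlapped by SPBC16E9.06c on the other strand, which was at 29.2 and 23.3 FPKM against 21.1 and 24.9 FPKM.

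Amino acid synthesis, the largest list, held 8 members among 58 eligible genes (13.8%), against 2.71% of all eligible genes, with ratios from 2.01 to 2.41. The share was 20% on the hexose list, 18.2% on the zinc list, 17.6% on the vitamin list, 14.8% on the cell wall list and 14.3% on the sterol list. The asparagine synthetase gene asn1 was the most abundant, at 961 and 968 FPKM in the deletion libraries and 441 and 381 FPKM in wild type. Next came the histidine synthesis gene his4 at 364 and 361 against 175 and 166 FPKM, his3 of the same pathway at 153 and 149 against 61.5 and 62.5 FPKM, and the ornithine carbamoyltransferase gene arg3 at 141 and 143 against 68.7 and 54.03 FPKM. Both histidine genes had replicates that differed little in either group. Glutamate metabolism was represented by the dehydrogenase gene gdh2 at 99.3 and 101 against 59.5 and 32.02 FPKM and the synthase gene glt1 at 42.2 and 41.6 against 26.1 and 14.4 FPKM. In both of these genes the wild-type replicates lay far apart and replicate 1 was the higher. The homoserine kinase gene thr1 was at 16.9 and 16.8 against 6.98 and 8.79 FPKM, and gcv1, encoding the T subunit of glycine decarboxylase, at 53.97 and 49.7 against 20.2 and 23.99 FPKM. The antisense RNA SPNCRNA.875, which covers 60.6% of gcv1, was at 99.2 and 93.4 FPKM against 45.2 and 41 FPKM, above gcv1 itself, so the reads of the pair cannot be told apart.

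Enzymes of sulfur amino acids, grouped after their values were seen, included the cystathionine beta-lyase gene cbl1 at 149 and 158 against 58.7 and 49.5 FPKM. The adenosylhomocysteinase gene SPBC8D2.18c, which recycles the by-product of methylation, was at 536 and 564 against 204 and 195 FPKM. The methionine synthase reductase gene SPBC12C2.03c was at 43.6 and 40.2 against 18.4 and 15.4 FPKM. These 3 genes had a median ratio of 2.75, and no member was on the fixed list of sulfate assimilation and methionine genes. The acetyltransferase gene aca1, whose product detoxifies a proline analogue, was at 905 and 987 against 322 and 308 FPKM, 1 of the 10 members with the highest mean.

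Another 8 members, also grouped after their values were seen, encode enzymes that break down purines, pyrimidines and urea. Eligible genes of these functions outside the set were not counted, so no share can be given. The urease gene ure2 was at 34.7 and 33.8 FPKM in the deletion libraries and 8.22 and 9.79 FPKM in wild type, a ratio of 3.52. Its antisense RNA SPNCRNA.1041 covers 97.2% of it and was lower in the deletion libraries, at 11.7 and 11.8 FPKM against 29.3 and 23.5 FPKM. The purine nucleoside phosphorylase gene SPAC1805.16c was at 71.8 and 73.8 against 25.4 and 22.6 FPKM, the guanine deaminase gene gud1 at 169 and 165 against 72.1 and 86.04 FPKM and the allantoicase gene dal2 at 50.3 and 53.5 against 20.8 and 21.3 FPKM. The genes of uracil and uridine breakdown were urg1 at 50.5 and 49.8 against 19.8 and 19.6 FPKM, urg2 at 32.1 and 30.3 against 8.91 and 14.9 FPKM, and urh2 at 24.6 and 22.9 against 7.99 and 11.1 FPKM. The nucleoside hydrolase gene SPBC800.11 was at 8.13 and 10.6 against 4.09 and 3.33 FPKM, the least abundant of the 8. Their ratios ran from 2.10 to 3.52 with a median of 2.43, close to the median of all members.

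Carbon metabolism supplied several of the most abundant members. The dihydroxyacetone kinase gene dak1 was at 3260.2 and 3494 FPKM in the deletion libraries and 1262 and 1068 FPKM in wild type. The gene mae2, annotated as a malate dehydrogenase, was at 2189.8 and 2369 against 1007 and 901 FPKM, and the pyruvate decarboxylase gene pdc101, of the step before ethanol, at 1489 and 1529 against 474 and 554 FPKM. The lowest pairwise ratio among these 3 genes was 2.17, for mae2. Sugar entry was represented by the hexose transporter gene ght4 at 271 and 302 against 101 and 55.3 FPKM, the glucose and fructose symporter gene ght2 at 147 and 169 against 61.6 and 55.1 FPKM and the hexokinase gene hxk2 at 324 and 344 against 157 and 131 FPKM. The maltase gene mal1, the second coding gene before ght4 on chromosome II, was at 137 and 144 against 71.1 and 58.8 FPKM. An overlapping non-coding RNA, SPNCRNA.1319, covers 25% of ght4 and was at 313 and 368 FPKM against 34.6 and 14.3 FPKM, so part of the reads assigned to ght4 may belong to it or the reverse. The glycolytic by-product phosphatase gene pho2 was at 1049 and 1059 against 492 and 553 FPKM.

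Vitamin uptake and synthesis gave some of the larger ratios. The vitamin B6 importer gene bsu1 was at 206 and 273 FPKM in the deletion libraries and 51.3 and 77.2 FPKM in wild type, a ratio of 3.68. The pantothenate importer gene liz1 was at 23.9 and 29.8 against 8.64 and 6.45 FPKM, and ecm31, for the first step of pantothenate synthesis, at 17.9 and 22.1 against 8.44 and 6.22 FPKM. Both of these overlap transcripts of the other strand over most of their length. The biotin synthase gene bio2 was at 120.3 and 111 against 45.7 and 50.99 FPKM, and the thiamine genes thi201 and SPBC1604.04 were at 243 and 268 against 90.6 and 109.7 FPKM and at 45.9 and 47.2 against 20.03 and 19.6 FPKM. Both thiamine genes are fully overlapped on the other strand, by non-coding RNAs at 1.13% and 29.5% of their level in the deletion libraries. The lowest pairwise ratio among these 6 genes was 2.005, for ecm31.

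**Figure D2:**
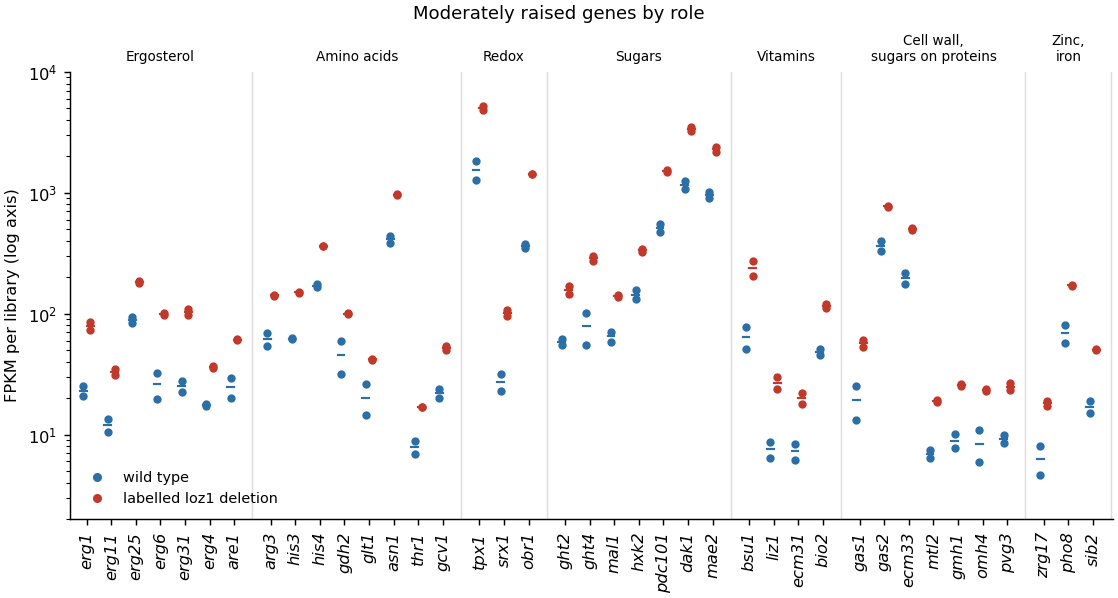
FPKM in each library (log axis) of moderately raised genes grouped by role, with wild type in blue, the labelled loz1 deletion in red and bars at the means (n = 2 each). The red points lie above the blue in every gene, as the rule requires, from thr1 at 16.9 and 16.8 FPKM to tpx1 at 4802 and 5221 FPKM in the deletion libraries.

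Genes of the cell surface formed a further block. The glucanosyltransferase genes gas1 and gas2, whose products lengthen beta-glucan in the wall, were at 53.01 and 60.6 against 13.3 and 25.2 FPKM and at 768 and 784 against 333 and 397 FPKM. The wall protein gene ecm33 was at 514 and 495 against 176 and 216 FPKM, and the wall stress sensor gene mtl2 at 18.7 and 19.4 against 6.44 and 7.42 FPKM. The KRE9-like genes knh3 and knh1 differed widely in level. The former was at 1955 and 2224 against 1311 and 689 FPKM and the latter at 28.2 and 27.6 against 5.84 and 12.2 FPKM, with wild-type replicates far apart in opposite orders. Of 48 glycosylation genes, 3 were members (6.25%, against 2.71% of all eligible genes). They were the galactosyltransferase genes gmh1 at 26.4 and 25.4 against 7.76 and 10.1 FPKM and pvg3 at 23.3 and 26.5 against 8.55 and 9.91 FPKM, and the mannosyltransferase gene omh4 at 23.7 and 23.1 against 10.9 and 5.95 FPKM. The cellulose-binding domain gene cbm1 was at 114 and 114 against 27.8 and 31.1 FPKM, with the third highest ratio. Both lysophospholipase members, plb1 at 1769 and 2041 against 929 and 448 FPKM and plb3 at 160.2 and 161 against 76.8 and 51.05 FPKM, lie in a run of 4 consecutive members on chromosome I, with SPAC1A6.11 between them.

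Metal genes among the members included those of zinc and iron. The gene zrg17, encoding a subunit of the zinc importer of the Golgi, was at 19.02 and 17.2 FPKM in the deletion libraries and 4.61 and 8.08 FPKM in wild type. The alkaline phosphatase gene pho8 was at 168 and 174 against 80.9 and 57.6 FPKM, and sib2, for the first step of siderophore synthesis, at 50.04 and 50.7 against 19.03 and 15.1 FPKM. Its neighbour sib1, which completes the siderophore, was at 5.39 and 4.841 against 4.736 and 4.145 FPKM. On the list of zinc genes 2 of 11 eligible genes were members (18.2%, against 2.71% of all eligible genes). Another 4 were raised at least 4-fold, against 37 of all 4685 eligible genes.

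Regulators were spread over several pathways. The tyrosine phosphatase gene pyp2, whose product switches off the stress kinase Sty1, was at 129 and 136 against 57.3 and 30.95 FPKM. The G protein gene gpa2 of glucose sensing was at 41.7 and 46.6 against 26.3 and 12.9 FPKM, and gti1, an inducer of gluconate transport, at 17.5 and 19.1 against 7.38 and 4.38 FPKM. Transcription factor genes included cbf12 at 26.9 and 27.5 against 7.69 and 6.69 FPKM, SPCC320.03 at 48.7 and 59.4 against 16.8 and 11.5 FPKM and SPAC2H10.01 at 146 and 151 against 60.9 and 54.1 FPKM. The F-box gene pof1, for a subunit of a ubiquitin ligase, was at 52.2 and 50.96 against 19.3 and 16.5 FPKM. Both alpha-tubulin genes were members, nda2 at 127 and 126 against 53.9 and 62.2 FPKM and atb2 at 29.2 and 28.6 against 9.85 and 12.1 FPKM. The tubulins were noticed after their values were seen.

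Other enzymes of small molecules spanned a wide range of levels. The chorismate mutase gene aro7, at the branch to phenylalanine and tyrosine, was at 34.8 and 28.2 against 12.6 and 12.1 FPKM, and 88.5% of its length is covered by SPAC16E8.02 on the other strand, at 54 and 48.7 against 68.2 and 58.1 FPKM. The aromatic aminotransferase genes SPAC56E4.03 and SPBC1773.13 were at 419.8 and 396 against 162 and 166 FPKM and at 41.4 and 37.7 against 12.8 and 17.2 FPKM. The reductase genes gor2, for glyoxylate, and SPAC8E11.10, for sorbose, were at 120.5 and 114 against 59.7 and 49.97 FPKM and at 43.8 and 45.8 against 15.8 and 14.2 FPKM. The next 3 genes are also overlapped on the other strand, and the counting is not stated to use strand. The cytochrome b5 gene cyb502, an electron donor of membrane-bound desaturases and oxidases, was at 107 and 108 against 43.6 and 42.2 FPKM, and its partner lam1 on the other strand was at 97.8 and 88.9 against 69.9 and 75.3 FPKM. The diflavin reductase gene tah18 was at 19.4 and 20.2 against 10.9 and 7.18 FPKM, below its partner vps17 at 37.3 and 34 against 34.7 and 31.1 FPKM. The adenylate kinase gene adk1, which balances adenine nucleotides, was at 224 and 237 against 81.3 and 143 FPKM, and its partner SPAC4G9.04c at 59.9 and 57.2 against 58.5 and 46 FPKM.

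Transporters other than those of sugars and vitamins included a citrate carrier and genes of amino acid uptake. The citrate transporter gene mce1 was at 42.3 and 39.9 against 12.2 and 14.5 FPKM. The amino acid permease genes aat1 and SPAC1039.01 were at 10.96 and 11.2 against 3.64 and 2.63 FPKM and at 8.08 and 8.76 against 3.96 and 2.56 FPKM, and both lie among the 6 members of lowest mean level. The transporter gene SPCC18.02, whose cargo the annotation does not name, was at 22.1 and 20.4 against 8.41 and 11.1 FPKM. Of 13 eligible genes on the list of amino acid and peptide permeases, 1 was a member, aat1 (7.69%, against 2.71% of all eligible genes).

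Protein breakdown and membrane traffic were each represented by a few genes. The carboxypeptidase gene cps1 was the most abundant of these, at 391 and 394 against 231 and 154 FPKM, and the dipeptidyl peptidase gene dpe2 was at 22.9 and 24.1 against 9.07 and 5.35 FPKM. The ubiquitin hydrolase gene ubp11 was at 39.3 and 41.9 against 19.9 and 12.3 FPKM, and the ubiquitin ligase gene bop1 at 22.8 and 17.8 against 7.80 and 8.13 FPKM. Like dpe2, bop1 is fully overlapped on the other strand, by SPAP32A8.02 at 45.2 and 51.8 against 49.5 and 42.9 FPKM. In the secretory route, the vesicle protein gene erv41 was at 44.1 and 47.7 against 17.4 and 21.5 FPKM, yip3 for a Rab-binding protein at 79.1 and 75.9 against 32.3 and 43.04 FPKM, and the inositol polyphosphate phosphatase gene sac11 at 67.8 and 64.2 against 27.3 and 34.2 FPKM. The surface genes asl1, for an O-glucosyl hydrolase, and pun1, of the SUR7 family, were at 89.9 and 99.2 against 33.2 and 44.6 FPKM and at 18.99 and 18.9 against 3.12 and 6.15 FPKM.

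Several members act on RNA or DNA. The gene SPBC1289.11, for the U5 snRNP subunit Spf38 of the splicing machinery, was at 71.8 and 70.1 against 30.3 and 34.1 FPKM. The tRNA modification gene tyw3 was at 13.1 and 11.9 against 3.69 and 4.47 FPKM and is fully overlapped on the other strand, 94.2% of it by mal2, at 24.2 and 20.5 against 25.3 and 25 FPKM. The repair gene nth1, for an endonuclease, was at 22.9 and 22.6 against 13.2 and 7.92 FPKM, mug176 with a BRCT domain at 10.9 and 9.999 against 2.69 and 4.42 FPKM, and puf5, for an RNA-binding protein of the pumilio family, at 7.44 and 7.71 against 2.80 and 2.49 FPKM. Of all members puf5 had the lowest mean over the 4 libraries. The wtf genes, a family of meiotic drive and its suppression that is repeated in the genome, contributed 2 members. They were wtf11 at 22.7 and 20.1 against 6.80 and 10.4 FPKM and wtf8, without a RefSeq product name, at 11.9 and 13.9 against 7.61 and 3.18 FPKM. No stretch of 100 bases of the RefSeq gene wtf11 occurred elsewhere in the RefSeq genome, and wtf8 could not be checked in this way, so whether its reads are split with other copies is uncertain. In addition 61.8% of wtf11 is covered by transcripts of the other strand.

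Of the members annotated as uncharacterised, SPAC57A10.07 had the highest ratio and SPCC306.11 the next, the latter at 109 and 114 against 29.6 and 30.1 FPKM, next to wtf8 on chromosome III. The genes SPBP4H10.14c and SPBP8B7.32 were at 26.3 and 24.7 against 6.63 and 9.30 FPKM and at 51.7 and 51.1 against 22.3 and 15.6 FPKM. The annotation assigns no function to either, nor to SPBC1A4.04, at 106 and 98.02 against 53.9 and 44.997 FPKM. The member SPAC823.02, with no matching RefSeq coding gene and a transcript of 132 nt, under the 200 nt that the limma test requires, was at 76.5 and 95.5 against 27.2 and 54.003 FPKM.

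By words in the RefSeq product names, 16 members (12.6%) were oxidoreductases against 4.83% of the other eligible genes, and 12 (9.45%) were membrane transporters against 3.71%. Other transferases made up 14 (11%) against 6.08%. No member was named a ribosomal protein or as mitochondrial, classes that held 4.78% and 2.28% of the other eligible genes. The genes raised at least 4-fold had 24.3% oxidoreductases and 16.2% transporters. In no class fell 45 members, and 10 (7.87%) were uncharacterised against 5.97%. These shares depend on annotation wording and carry no test.

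Members varied more between the wild-type replicates than other genes did, a property that the limits of the rule also shape. The median absolute difference between the wild-type libraries was 0.29 on the log2(FPKM + 1) scale for members and 0.21 for other eligible genes, and between the deletion libraries 0.08 for both. The wild-type pair was more than 1.5-fold apart in 29 members (22.8%) and in 7.99% of other eligible genes. The widest case was SPACUNK4.17, a dehydrogenase-family gene, at 634 and 753 FPKM in the deletion libraries and 551 and 43.4 FPKM in wild type, so that its ratio ran from 1.15 to 16.97 by pair. The short gene SPBC2A9.13 (147 nt) was at 10.9 and 16.7 against 9.02 and 0 FPKM, listed at 0 in 1 library. Next in order were plb1, wtf8, gpa2 and SPAC823.02. At the other end dbp3 was at 26.7 and 25.8 against 12.3 and 12.2 FPKM, urg1 at 50.5 and 49.8 against 19.8 and 19.6 FPKM and sst2 at 96.9 and 96.7 against 36.4 and 35.7 FPKM. Wild-type replicate 1 was the higher in 68 members and replicate 2 in the remaining genes, so no common order of the wild-type libraries ran through them.

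**Figure D3:**
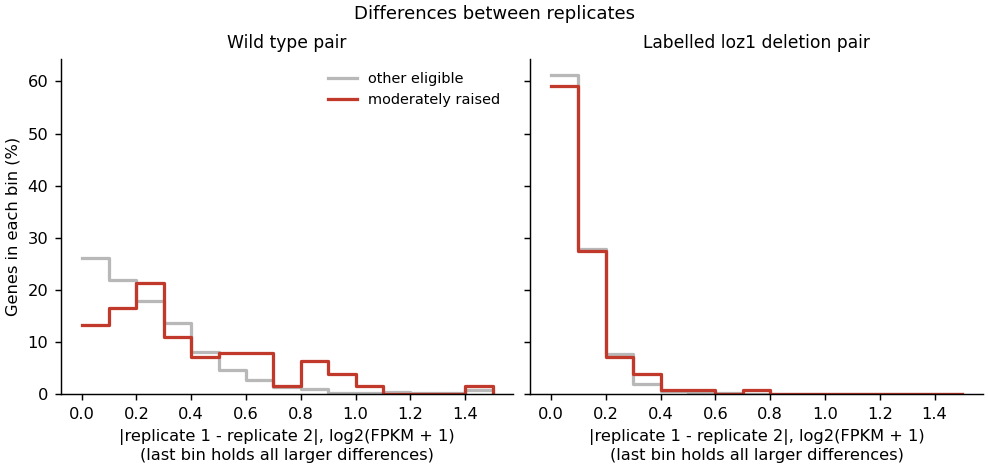
Share of genes (%) by the absolute difference between 2 replicates on the log2(FPKM + 1) scale, for the wild-type pair and for the pair labelled loz1 deletion. Members (red) reach further right than other eligible genes (grey) in wild type, with medians of 0.29 and 0.21, and both have a median of 0.08 in the deletion pair.

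Gene structure, which the rule did not use, differed in splicing. Of the members 98 (77.2%) had a single exon in the files, against 48.9% of other eligible genes. Single-exon genes also made up 67.6% of those raised at least 4-fold, 59.3% of those raised from 1.5-fold to below 2-fold and 80.8% of the moderately lowered genes, so the share was not limited to rises. Median transcript length was 1961 nt against 1798 nt, and median GC content 38.1% against 36.8%. Chromosomes I, II and III held 65, 44 and 18 members. Multi-exon members included the protease gene sst2 with 5 exons and his3 with 4.

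Overlap with another transcript on the opposite strand covered at least 20% of 47 members (37%), against 32.4% of other eligible genes. Full overlap was found in 17 (13.4%), against 6.19% of other eligible genes for overlap of any strand. The strand setting of the counting is not given in the sources used here, so reads of the 2 strands cannot be told apart in these genes. This holds also for members whose values are given without mention of their overlap. Among them are omh4, gud1 and SPAC683.02c (100% covered), his4 (90.2%), gas2 (89%), his3 (87.3%) and pvg3 (63.8%). The partner that covers most of the member was a non-coding RNA in 23 cases and a coding gene in 24. Partners had a ratio of at least 2 in 9 cases, from 1 to below 2 in 22 and below 1 in 16, with a median of 1.11. Of the 9 with a ratio of at least 2, 8 were non-coding. Besides SPNCRNA.1319 at ght4 and SPNCRNA.875 at gcv1 they included SPNCRNA.953, at 70.3 and 63 FPKM against 16.1 and 18.7 FPKM, which exceeded its member SPAPB18E9.04c. The value of SPAPB18E9.04c is uncertain for another reason too, since 12.8% of its stretches of 100 bases occurred elsewhere in the RefSeq genome. In 11 pairs the partner was the more abundant in the deletion libraries, and in 12 its level was below 10% of the member's.

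Some members lay next to genes with larger changes. A coding gene raised at least 4-fold was the direct neighbour of 9 members (7.09%), against 1.32% of other eligible genes. The latter include the genes raised at least 4-fold, among which the share was 21.6%. The region around the alcohol dehydrogenase gene adh4 on chromosome I held 4 members. There SPAC5H10.05c, for an FAD-binding oxidoreductase, was at 34.3 and 32.4 against 11.4 and 16.5 FPKM beside adh4 at 3319.9 and 3602 FPKM against 23.3 and 32.8 FPKM. Its neighbour SPAC5H10.04 between it and SPAC5H10.03 was at 0.9722 and 2.441 against 2.246 and 2.858 FPKM, while SPAC5H10.03 was at 72.8 and 67.7 against 13.8 and 26.9 FPKM. A little further, ecm31 and gmh1 flank SPAC5H10.10, an NADPH dehydrogenase gene at 100.7 and 118 FPKM against 10.14 and 8.213 FPKM. The members on both sides had ratios of 2.52 and 2.71, and the genes beyond them, pan6 and otg1, had 1.697 and 1.555.

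The same arrangement recurred at mug15, which lies between pof1 and SPAC57A10.07. The latter, of unknown function, was at 39.3 and 40.9 FPKM in the deletion libraries and 8.77 and 11.3 FPKM in wild type, a ratio of 3.72, while the outer neighbours sgf11 and SPAC57A10.08c had ratios of 0.9146 and 1.15. Near loz1, SPAC683.02c was at 28.3 and 26.3 against 10.4 and 6.52 FPKM, next to SPAC683.03 at 43.1 and 44.6 FPKM against 0.341 and 1.35 FPKM. On chromosome III SPCC13B11.03c, for a hydroxyacylglutathione hydrolase, was at 34.3 and 33.3 against 12.9 and 14.7 FPKM, next to SPCC13B11.02c with a ratio of 258.

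Members also lay near each other. In 11 runs 24 members (18.9%) had another member within 3 coding genes, against 40.2% for the larger set raised from 1.5-fold to below 2-fold, 29.7% for genes raised at least 4-fold and 11.5% for moderately lowered genes. Larger sets lie closer together, so these shares do not compare sets of unequal size. The longest run held 4 consecutive genes on chromosome I, wdr55, plb3, SPAC1A6.11 and plb1 (I:1068668-1077514), with ratios of 2.45, 2.49, 2.15 and 2.77, while rqt4 before them and ptl3 after them had 1.124 and 1.234. In the uracil-responsive cluster urg2 and urg1 had 2.49 and 2.47, and urg3 between them 1.19, at 46.18 and 38.59 FPKM against 37.99 and 32.91 FPKM. At mal1 and ght4 the gene between, urh1, was listed at almost 0 in every library.

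**Figure D4:**
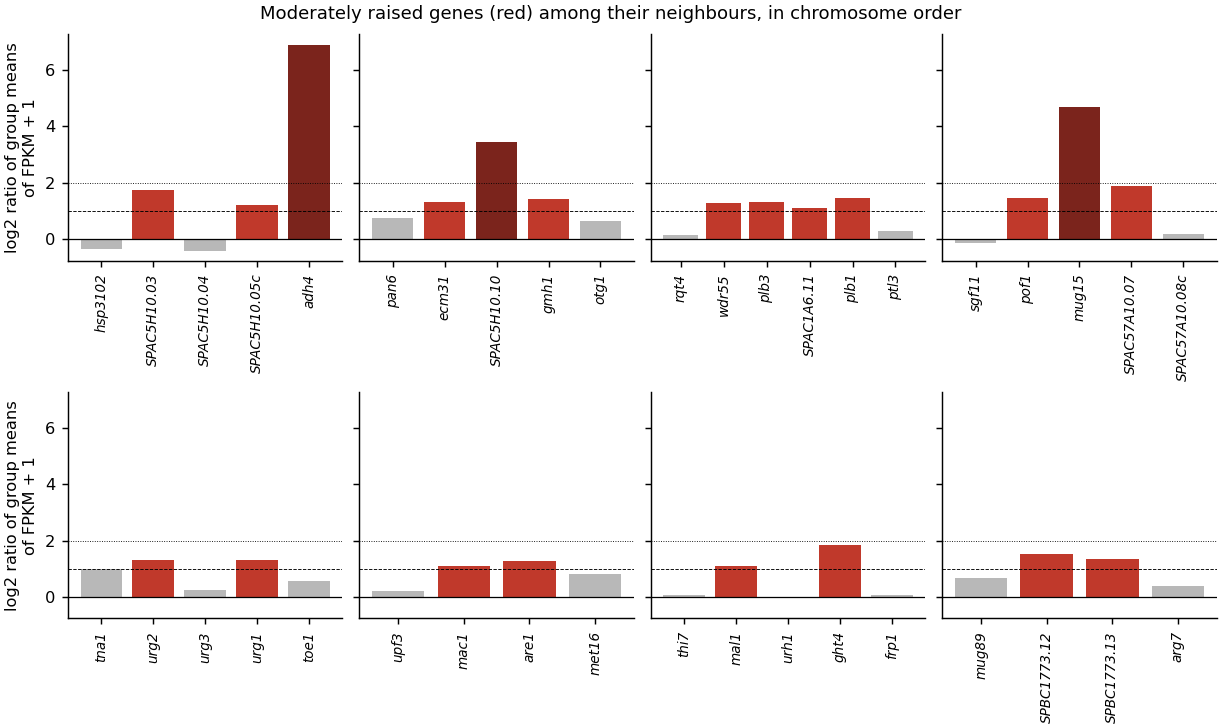
Log2 ratio of group means of FPKM + 1 (libraries labelled loz1 deletion over wild type) for 8 runs of neighbouring coding genes in chromosome order, with members in red, genes raised at least 4-fold in dark red and other genes in grey. Dashed and dotted lines mark ratios of 2 and 4. Members lie on both sides of SPAC5H10.10 and mug15, with ratios of 10.84 and 25.99, and on 1 side of adh4, with a ratio of 119.2.

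Other promoter letters were searched on both strands within 250 bases before the RefSeq start, in 125 members and 4536 other eligible genes. GATC, which lies inside the Loz1 response element and in many other sequences, was in 52% of member promoters, 37% of the others and 37.5% of all coding promoters. Among the 36 promoters of genes raised at least 4-fold it was in 55.6%. The CCAAT box (CCAAT), bound by the Php complex, was in 47.2% against 34.9% of the others and 35.3% of all, and genes raised at least 4-fold had 33.3%. The Rst2 letters (CCCCTC), of glucose-repressed genes, were in 6 member promoters (4.8%) against 1.68% and 1.7%, and in 3 promoters (8.33%) of genes raised at least 4-fold. The TR box (CTTTGTT) of the mating factor Ste11 was in 9.6% against 8.66% and 8.72%. Atf1 letters (TGACGT), of the stress response, were in 5.6% against 5.45% and 5.52%, while genes raised at least 4-fold had 27.8%. The heat shock letters (GAANNTTC) were in 8% against 9.63% and 9.49%, and the TATA box (TATAAA) in 46.4% against 44.1% and 44.4%. Member promoters were slightly richer in G and C, with a median of 34% against 32%, whose part in these shares was not tested. By gene, 20 member promoters (16%) held GATC at least 2 times, among them those of cbm1, sst2 and pof1. The share was 8.51% for the other eligible genes and 27.8% for genes raised at least 4-fold.

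**Figure D5:**
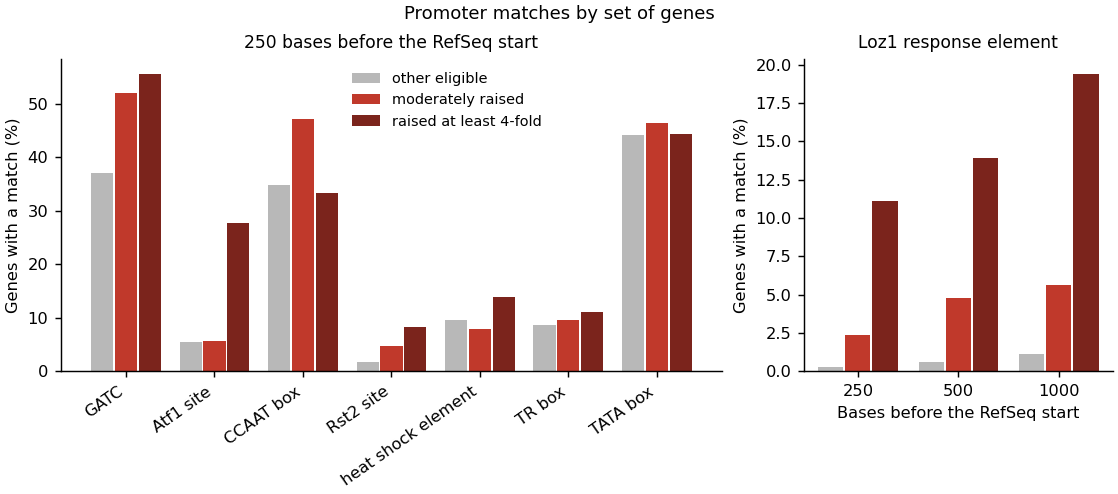
Share of genes (%) with at least 1 match of each set of letters in the 250 bases before the RefSeq start (left), and of the Loz1 response element in 3 windows (right), for other eligible genes (grey), members (red) and genes raised at least 4-fold (dark red). For the Loz1 response element the members lie between the other sets in each window, at 2.4%, 4.8% and 5.6%. In the wider windows some elements count for both members and genes raised at least 4-fold.

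Genes of the same pathways outside the set were tested with limma over all 6315 genes of sufficient level. In that fit 753 genes (11.9%) rose and 276 (4.37%) fell in the deletion libraries, with an adjusted p under 0.05 by Benjamini-Hochberg. The median of all tested genes was 0.13 (log2). After median-ratio rescaling 420 rose and 319 fell, so that 56.8% of calls were rises in place of 73.2%. Without deletion replicate 1 the counts were 103 and 50, without deletion replicate 2 they were 106 and 58, without wild-type replicate 1 they were 2204 and 920, and without wild-type replicate 2 they were 1659 and 820. Of 155 listed genes outside the set that were called, 27 and 25 kept the call without deletion replicate 1 and 2, and 93 kept it after rescaling. With 1 library left out, the lone library of that group is assumed to vary like the pair of the other group. The spread then comes from the wider wild-type pair when a deletion library is left out, and from the closer deletion pair when a wild-type library is. The calls below share this limit.

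In amino acid synthesis 22 of 51 other tested genes (43.1%) rose, against 11.9% of all tested genes. Their median was 0.50 (log2) against 0.13 for all genes. After rescaling 11 of the 51 rose, and of all tested genes 420 rose in place of 753. Without deletion replicate 1 or 2 limma called 0, with 19 higher in each case at an unadjusted p under 0.05. The smallest p-values were those of arg1 at 503.8 and 498.2 FPKM against 263.9 and 264.3 FPKM (0.92 ± 0.09, log2, SE, adjusted p = 0.00654 by limma), lys12, ilv3 and lys9, all between 0.89 and 0.98. On the list of sterol synthesis and sterol regulators 9 of 30 rose (30%) and 1 fell (3.33%, against 4.37% of all tested genes), with a median of 0.33. The rises included scs7, ofd1 and ins1 beside genes of the synthesis itself, and the fall was that of hem14. The count of this list after rescaling is not given here. Without deletion replicate 1 or 2 limma called 0 rises, with 8 and 9 at an unadjusted p under 0.05. The farnesyl diphosphate synthase gene fps1 was at 390.8 and 375.7 FPKM against 236.9 and 241.7 FPKM (0.68 ± 0.09, adjusted p = 0.0146 by limma), followed by idi1, erg10 and erg27. In protein glycosylation 9 of 45 rose (20%) and 1 fell (2.22%), with a median of 0.32. After rescaling 3 of the 45 rose, a share near that of all tested genes, so the excess of rises depended on the scaling. Without deletion replicate 1 or 2 limma called 0 rises, with 4 and 6 at an unadjusted p under 0.05. The median of each of these 3 lists lay above that of all genes. Members, with ratios of 2 or more, were set aside, and these lists held no gene raised at least 4-fold. Differences below 2-fold among the remaining genes therefore follow largely from the rule.

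Redox genes outside the set went in both directions. Of 24 other tested genes 5 rose (20.8%) and 2 fell (8.33%), against 11.9% and 4.37% of all tested genes, with a median of 0.09. The mitochondrial superoxide dismutase gene sod2 fell, from 1255 and 1354 FPKM in wild type to 708.2 and 716.3 FPKM (-0.87 ± 0.12, adjusted p = 0.0144 by limma), and so did the glutaredoxin gene grx1 (-0.85 ± 0.15, adjusted p = 0.0265 by limma). The regulator gene prr1 rose by 0.90 ± 0.14 (adjusted p = 0.02 by limma). After rescaling 1 rise of the 24 was called, a smaller share than that of all tested genes, of which 420 then rose. Without deletion replicate 1 or 2 limma called 0 rises, with 2 and 5 at an unadjusted p under 0.05, and 0 falls, with 1 and 1. Among hexose genes ght1 rose by 4.13 ± 0.44 and ght7 fell by 3.99 ± 0.70 (adjusted p = 0.00785 and 0.0273 by limma). The share of rises on that list, 7.14%, was below that of all tested genes, and the share of falls was 14.3%. Of 14 other genes of that list 1 rose and 2 fell, and without deletion replicate 1 or 2 limma called 1 rise and 0 falls, with 2 falls at an unadjusted p under 0.05.

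Further lists can be given by count, without their counts after rescaling. The share of rises among vitamin genes was 28.6%, against 11.9% of all tested genes. Among vitamin genes 4 of 14 others rose, led by the biotin transporter gene vht1 at 666.3 and 725.04 FPKM against 160.8 and 133.9 FPKM (2.24 ± 0.13, adjusted p = 0.00176 by limma), and 2 were called without either deletion replicate. Nucleotide synthesis had 7 rises of 23 (30.4%) and phosphate genes 3 of 11 (27.3%), against 11.9% of all tested genes. Glycolysis had 3 rises (16.7%) and 4 falls (22.2%) of 18. Cell wall genes had 2 rises of 27 (7.41%), below the share of all tested genes, and the TCA cycle 2 falls of 37 (5.41%), near the 4.37% of all. Of the 35 lists 17 held no member. Among these, ribosome biogenesis had 9 rises (21.4%) and 1 fall of 42, and the vacuolar ATPase 6 rises of 15 (40%). Without deletion replicate 1 or 2 limma called 3 rises in the phosphate list, 1 in the cell wall list, and 1 rise and 1 fall in glycolysis. In both settings it called 0 genes in nucleotide synthesis, the TCA cycle, ribosome biogenesis and the vacuolar ATPase. At an unadjusted p under 0.05 these had 5 and 4, 0 and 0, 6 and 5, and 3 and 5 rises, and 0 falls.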

How the data were processed

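RNA sequencing gave 4 libraries, 2 per strain. The authors deposited, per the file headers, 1 transcript per line with an FPKM value from Cufflinks and its bounds, and a score column that was not used. The build ASM294v2 and the tools HISAT2, Cufflinks, Cuffdiff and SAMtools come from the submitters' processing notes. Neither versions nor the strand setting are given in the sources used here. All files hold 7093 transcripts of 7092 genes. No read totals are given, and depth was estimated from the bounds of coding transcripts free of overlap.

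FPKM was summed per gene, and the rule was applied with 1 added. The members, gene lists, motifs and tests were chosen with earlier results of these data known, and list entries whose RefSeq name describes another protein were removed afterwards. The rule for named genes took the 10 highest means, the ratios at both bounds, members of lists, the widest and closest replicates, adjacent members and promoters with matches. The choice of further genes came after seeing their values, among them genes of purine breakdown, of the methionine cycle, of traffic, proteolysis, transport and nucleic acids, uncharacterised genes and those beside strongly raised genes.

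The test (limma 3.58.1, R 4.3.3) took log2(FPKM + 1) of genes whose mean reached 1 FPKM and whose longest transcript reached 200 nt, an intensity trend in the prior and a threshold of 0.05 after Benjamini-Hochberg adjustment. The fit was tested on simulated data. A fold change on this scale understates that of low genes. Coordinates of genes are those of the files. Names and sequences are RefSeq's for ASM294v3, where 6746 identifiers matched and 98% of 5327 introns were identical, and the 250 bases before each RefSeq gene start were read there. Matches of 1 other set of letters are not reported here. Tables and plots were made with Python 3.11.15, pandas 2.3.3 and matplotlib 3.10.9.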

Additional observations from a re-analysis of the deposited data

How the results depend on the processing

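The number of moderately raised genes, 127, moved with how the ratio was taken. Requiring a ratio from 2 to below 4 in both same-numbered pairs of libraries (a replicate block) left 76. Requiring at least 2 in all 4 pairs, added after seeing the data, left 84. Both are stricter forms of the rule, so their genes lie among the 127 by construction. With 0.1 or 5 added in place of 1 there were 144 and 102 genes, of which 125 and 91 were among the 127, and after median-ratio rescaling 98, of which 95 were. Leaving out 1 library gave 131 to 173 genes, and without wild-type replicate 1 or 2 only 104 and 97 of them were among the 127. In the limma fit the counts of 753 higher and 276 lower genes moved over 1.5 times to 176 lower genes with no filter on the mean and to 420 higher genes after rescaling. Leaving out 1 library gave 103 to 2204 higher and 50 to 920 lower genes. Same-numbered libraries did not deviate together over all genes (correlation -0.01 over 6315 genes, -0.13 with short transcripts included). A correlation over all genes cannot settle whether the numbers pair the samples, and the labels do not say. The main fit did not pair them. With the replicate block 538 genes were higher and 224 lower. With the numbers crossed, a pairing added after seeing the data, the counts were 856 and 391. With 2 libraries a group, outlying samples could not be tested for.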
